A study of Homo sapiens with 27 samples.

Results

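The BCL2 family decides whether a stressed cell keeps its mitochondria intact, and 10 of its genes are described here across SUM159 and MDA-MB-231, human triple negative breast cancer (TNBC) cell lines in which the promoter of ZEB1 was targeted with a repressor. The 10 genes are BCL2A1, BCL2, BCL2L1 and MCL1, which protect the cell, BCL2L11, BBC3, PMAIP1 and BID, which trigger death, and BAX and BAK1, which carry it out. They were taken by name from a table of 57165 genes, all 10 were in it, and all 10 passed the filter on low counts in each model fitted. The group was chosen by the levels of BCL2A1, which was higher in SUM159 cells with gRNAs against ZEB1 than in No gRNA cells, and higher in MDA-MB-231 cells with the vector alone than in wild type. For every member those contrasts (SUM159 All gRNA and gRNA 4 against No gRNA, and MDA-MB-231 No gRNA against wild type) are therefore given as a description, with no p-value, and so are all contrasts of BCL2A1 itself, since its levels in those groups led to the choice.

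RNA-seq covered 9 groups of 3 libraries. In each line there were untransduced wild type cells and cells transduced with the lentiviral pLV dCas9-KRAB vector, a Cas9 that cannot cut fused to the KRAB repressor domain, either with no gRNA (No gRNA) or with gRNAs against the ZEB1 promoter. SUM159 cells received gRNA 4 alone or 4 gRNAs pooled (All gRNA), and transduced cells were selected with puromycin at 1.25 µg/mL in SUM159 and 0.75 µg/mL in MDA-MB-231. The replicates are individual clones according to the methods of the study, and p-values measure only the spread between these libraries. For 6 MDA-MB-231 libraries the titles and the data columns give opposite gRNA conditions. They are kept as set 1 (titles name gRNA 4, columns name the pool) and set 2 (titles name the pool, columns name gRNA 4). SUM159 groups were sequenced in run 1 and MDA-MB-231 groups in run 2, with 3 more SUM159 wild type libraries in run 2, so that for cells with dCas9-KRAB the line and the run cannot be told apart.

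Proteins of this family meet on the outer membrane of the mitochondrion. BAX and BAK1 form pores that release cytochrome c and start the caspases. The guardians BCL2, BCL-XL (the main product of BCL2L1), MCL1 and BFL1 (the product of BCL2A1) hold them back by binding a short helix called the BH3 domain. The BH3-only proteins BIM (BCL2L11), PUMA (BBC3), NOXA (PMAIP1) and BID occupy the guardians or activate BAX and BAK1 directly, and epithelial cancers are known to lean most on BCL-XL and MCL1, whereas BFL1 is best known from blood cells and as a target of NF-kB.

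The stretch before the start of BCL2A1 is shown because this gene had the largest log2 difference among the members. Its upstream 250 bases (RefSeq, GRCh38.p14, chr15:79971197-79971446, minus strand, written in the direction of the gene) have a GC content of 38.8%, and its whole 300-base window (250 bases before to 50 after the start) has 41.0%, below the median of 58.7% over all such windows. Capitals would mark a motif, and none of those searched is in it.
BCL2A1 upstream: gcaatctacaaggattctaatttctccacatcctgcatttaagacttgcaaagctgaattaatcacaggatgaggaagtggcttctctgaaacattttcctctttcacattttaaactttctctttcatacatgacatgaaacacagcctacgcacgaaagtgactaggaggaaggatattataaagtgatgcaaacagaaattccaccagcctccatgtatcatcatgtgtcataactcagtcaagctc
The motifs searched on both strands were CACCTG, the E-box that ZEB1 binds, TGANTCA, bound by AP-1, and the NF-kB consensus. Windows of this kind were found for 9 of the 10 members (14 windows, none for MCL1), and the E-box was in 1 of them, AP-1 in 1 and NF-kB in 0. Over 35116 windows of the same length the shares were 20.6%, 7.71% and 5.91%. The lines below give the matches with 30 bases around each, the motif in capitals. The BAX E-box lies on the strand opposite to the gene, 103 bases before the start (chr19:48954760-48954789, plus strand shown), and the AP-1 match of BBC3 begins 113 bases before the start (chr19:47232762-47232791, minus strand shown).
BAX E-box: gagggagcgaggCAGGTGcggtcacgtgac
BBC3 AP-1: gcactggaaggTGAGTCActctggtgaggc
A match says only that these letters are present in the window. No measurement here bears on binding.

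Library totals were 15461200 to 21473757 estimated counts. ZEB1, the targeted gene, averaged 73.7 to 79.6 CPM (counts scaled to the size of the library) in the SUM159 control groups and fell to 3.46 ± 1.01 with gRNA 4 and 0.737 ± 0.331 with All gRNA (SD, n = 3). In MDA-MB-231 it averaged 70.0 CPM without and 110.1 CPM with the vector, and fell to 5.33 ± 0.520 (set 1) and 4.69 ± 0.888 CPM (set 2; SD, n = 3), so both sets were repressed whichever label is right. ESR1 did not exceed 0.185 CPM in any library and PGR 0.959, and ERBB2 ran from 38.1 to 72.1. CLDN4, a claudin of tight junctions, averaged 66.2 to 134 CPM in MDA-MB-231 groups against at most 0.742 in SUM159 groups. Of 7 blood cell markers, CD14 was the most abundant, at up to 5.49 CPM in MDA-MB-231 No gRNA, and the other 6 stayed at or under 0.820 CPM in every library. PTPRC reached at most 0.294, CD3E and MS4A1 at most 0.0645, and CD79A averaged 0.721 CPM in MDA-MB-231 set 1 against 0.170 in No gRNA.

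Corrected for transcript length (CPM per kb of the canonical transcript), BCL2L1 and MCL1 stood highest in the family in every group. BCL2L1 ranged over the 9 group means from 131 to 275 CPM per kb and MCL1 from 120.4 to 269. The effector BAX ranged from 39.8 to 97.3, while BID (22.6 to 39.1) and BAK1 (20.2 to 37.9) kept to a narrow band. PMAIP1 ran from 4.41 to 139 CPM per kb, with all 4 MDA-MB-231 means above all 5 SUM159 means. The least abundant were BBC3 (1.76 to 15.03), BCL2A1 (0.324 to 11.9), BCL2L11 (1.22 to 6.13) and BCL2 itself (1.29 to 5.64).

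**Figure D1:**
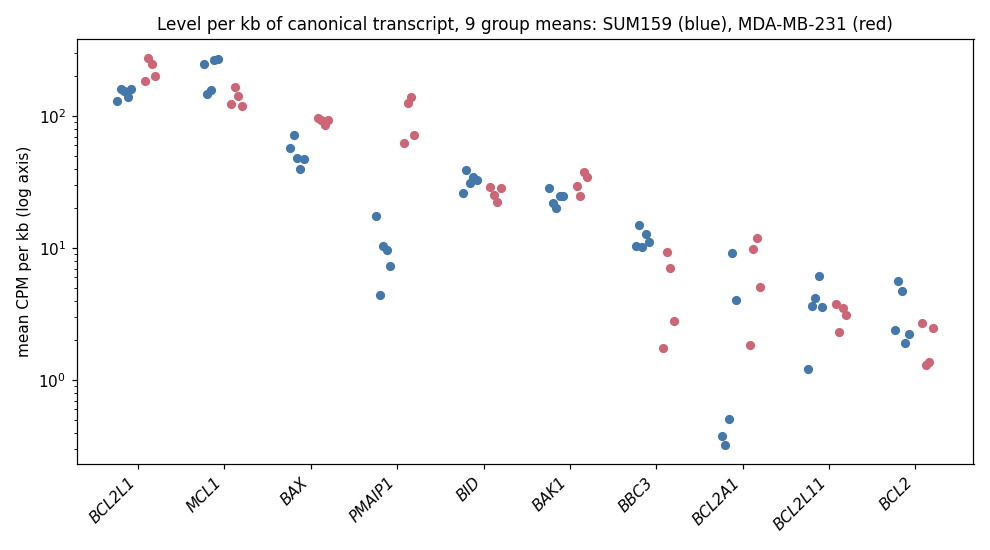
Mean CPM per kb of canonical transcript (log axis) for each member, 1 point for each of the 9 group means, with SUM159 in blue and MDA-MB-231 in red. BCL2L1 and MCL1 lie between 120.4 and 275 in every group, and BCL2A1 (0.324 to 11.9) and PMAIP1 (4.41 to 139) spread the most on the log axis.

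Differences were counted with limma by a strict and a lenient rule, both at a Benjamini-Hochberg adjusted p under 0.05 over all genes of a fit. The strict rule (TREAT) asks whether a log2 fold change exceeds 1, and the lenient rule (the moderated test) whether it differs from 0. Each count of members stands beside the share of all tested genes called by the same rule. The counts include BCL2A1, whose levels led to the choice of the group, and a call of BCL2A1 in any comparison is a description only. With the vector in SUM159 (No gRNA against wild type of run 1), 0 of 10 members passed TREAT, where 1.53% of genes did, and 7 passed the moderated test, where 42.9% did. BCL2, BCL2L1 and BCL2L11 rose and MCL1, PMAIP1, BAX and BAK1 fell. Between All gRNA and gRNA 4, 0 members passed TREAT (0% of genes) and 2 the moderated test (0.944%), BCL2A1 being lower and BCL2L1 higher with the pool. Since BCL2A1 is the gene behind the choice, that count is not read against the share.

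In MDA-MB-231, set 1 against No gRNA gave 0 TREAT calls among the members (1.47% of genes) and 5 moderated calls (37.8%), with PMAIP1 and BAK1 higher and BCL2L1, MCL1 and BBC3 lower. Set 2 against No gRNA gave 1 TREAT call, BBC3 (4.14%), and 7 moderated calls (52.4%), with BCL2 and BAK1 higher and BCL2A1, BCL2L1, MCL1, BBC3 and PMAIP1 lower. Both sets together against No gRNA gave 0 TREAT calls (1.77%) and 7 moderated calls (44.6%). Set 1 against set 2 gave 0 TREAT calls (3.07%) and 7 moderated calls (51.5%). The first 3 comparisons share the No gRNA libraries. With the moderated test calling up to 52.4% of all genes in these comparisons, such a call sets no member apart. Of the calls for both sets together, those of BCL2A1 (log2 -0.32) and BCL2 (log2 0.53) were lost when single libraries were left out (-0.21 to -0.33 without No gRNA replicate 2 or 3 or any library of the sets for BCL2A1, and 0.47 to 0.57 without any No gRNA library, set 1 replicate 2 or 3, or set 2 replicate 1 or 2 for BCL2). Where 0 members passed TREAT, edgeR and DESeq2 tested against the same threshold also called 0, and the unadjusted TREAT p was under 0.05 for 1 member in the SUM159 vector comparison, for 1 between the sets and for 0 in the other 3.

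In the contrasts behind the choice of members, nothing is read from the counts. All gRNA against No gRNA in SUM159 had 1 member past TREAT (0.396% of genes) and 5 past the moderated test (10.8%), gRNA 4 against No gRNA had 1 (0.39%) and 6 (11%), and MDA-MB-231 No gRNA against wild type had 2 (3.6%) and 8 (53.8%). Wild type SUM159 cells of run 2 against those of run 1 had 1 member past TREAT, PMAIP1 (6.47%), and 9 past the moderated test (58.8%). Wild type SUM159 against wild type MDA-MB-231, both in run 2, had 3 past TREAT, BCL2A1, BBC3 and PMAIP1 (28.8%), and 9 past the moderated test (73%).

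**Figure D2:**
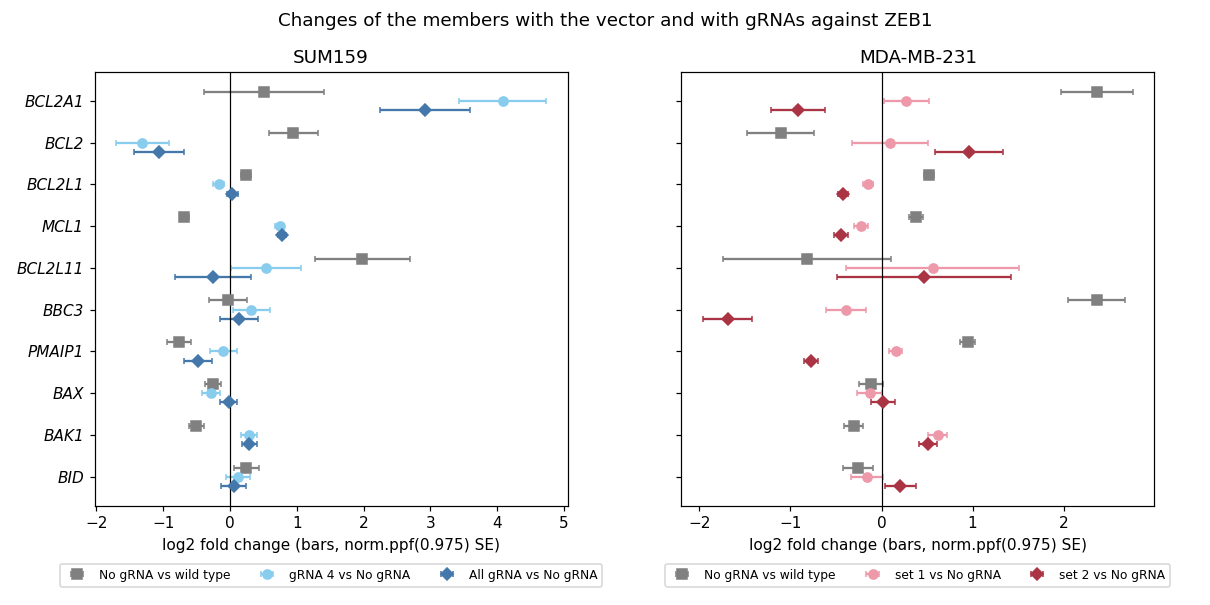
Log2 fold change of each member (x axis) in SUM159 (left) and MDA-MB-231 (right), with the vector comparison in grey squares and the gRNA comparisons in colour. Bars reach 1.96 SE to each side, a normal approximation that is narrower than the moderated test implies. BCL2A1 stands at 4.08 and 2.92 with gRNAs in SUM159 and at 2.36 with the vector in MDA-MB-231, and the BAX points lie between -0.28 and 0.02.

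BCL2A1, the guardian BFL1, lies on chromosome 15 (79960892 to 79971196, minus strand, GRCh38). It was close to silent in SUM159 controls, with 0.455, 0.154 and 0.273 CPM in wild type of run 1, 0.407, 0.205 and 0.146 in wild type of run 2, and 0.306, 0.466 and 0.420 in No gRNA. These rest on 2.32 to 9.57 estimated counts per library, so BCL2A1 passed the filter on low counts in SUM159 only through the targeted groups. With gRNA 4 the libraries held 7.89, 7.46 and 6.13 CPM (104 to 138 counts), and with All gRNA 3.15, 2.70 and 3.66. Every targeted library lay above every control library of SUM159, and the 3 control groups overlapped one another.

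The fitted log2 difference to No gRNA was 4.08 with gRNA 4 (SE 0.33, a 16.9-fold difference) and 2.92 with All gRNA (SE 0.35, 7.56-fold). Leaving out any of the 3 No gRNA libraries or All gRNA replicate 1 or 3 left 0 members past TREAT with All gRNA, while the log2 difference stayed between 2.76 and 3.04. The vector without gRNA gave 0.50 (SE 0.46). BCL2A1 was 2.24-fold lower with All gRNA than with gRNA 4 (log2 -1.16, SE 0.18), with no overlap between the groups, and the log2 value was -1.16 without All gRNA replicate 1 and -1.05 without replicate 2, where it was no longer among the members called.

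In MDA-MB-231 the pattern of BCL2A1 was another. Wild type cells held 1.70, 1.06 and 1.58 CPM, No gRNA cells 6.72, 7.57 and 8.94, set 1 9.32, 9.05 and 9.41, and set 2 3.99, 4.11 and 3.87. No gRNA, which carries no gRNA against ZEB1, stood 5.14-fold above wild type (log2 2.36, SE 0.20). Against No gRNA, set 1 differed by 0.27 on the log2 scale (SE 0.13; 0.38 without No gRNA replicate 3) and set 2 by -0.92 (SE 0.15), with every set 2 library below every No gRNA library. Every set 2 library was above every wild type library (log2 1.44, SE 0.22, a comparison added after the data were seen).

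Ordered by level over the 9 groups, BCL2A1 ran from MDA-MB-231 set 1 through No gRNA and SUM159 gRNA 4, which overlapped each other, to set 2, SUM159 All gRNA, MDA-MB-231 wild type and the 3 SUM159 control groups, which overlapped. In the wild type cells of run 2 it was 5.62-fold lower in SUM159 than in MDA-MB-231 (log2 -2.49, SE 0.38), on a mean of 3.99 counts in SUM159. The 7 blood cell markers summed to 0.539 to 1.13 CPM in SUM159 gRNA 4 and 1.12 to 1.54 in No gRNA. In MDA-MB-231 No gRNA they summed to 3.79 to 5.90 CPM, mostly CD14 (mean 4.69), and to 1.49 to 1.69 in wild type. CD14 moved with BCL2A1 in that vector comparison, and its part in the result was not tested. In set 1, where BCL2A1 averaged 9.26 CPM, the 7 markers summed to 1.62 to 1.78 CPM. In set 2, where BCL2A1 averaged 3.99 CPM, they summed to 1.44 to 1.75. All values are from whole cultures, in which more cells with a transcript and more transcript per cell cannot be told apart.

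**Figure D3:**
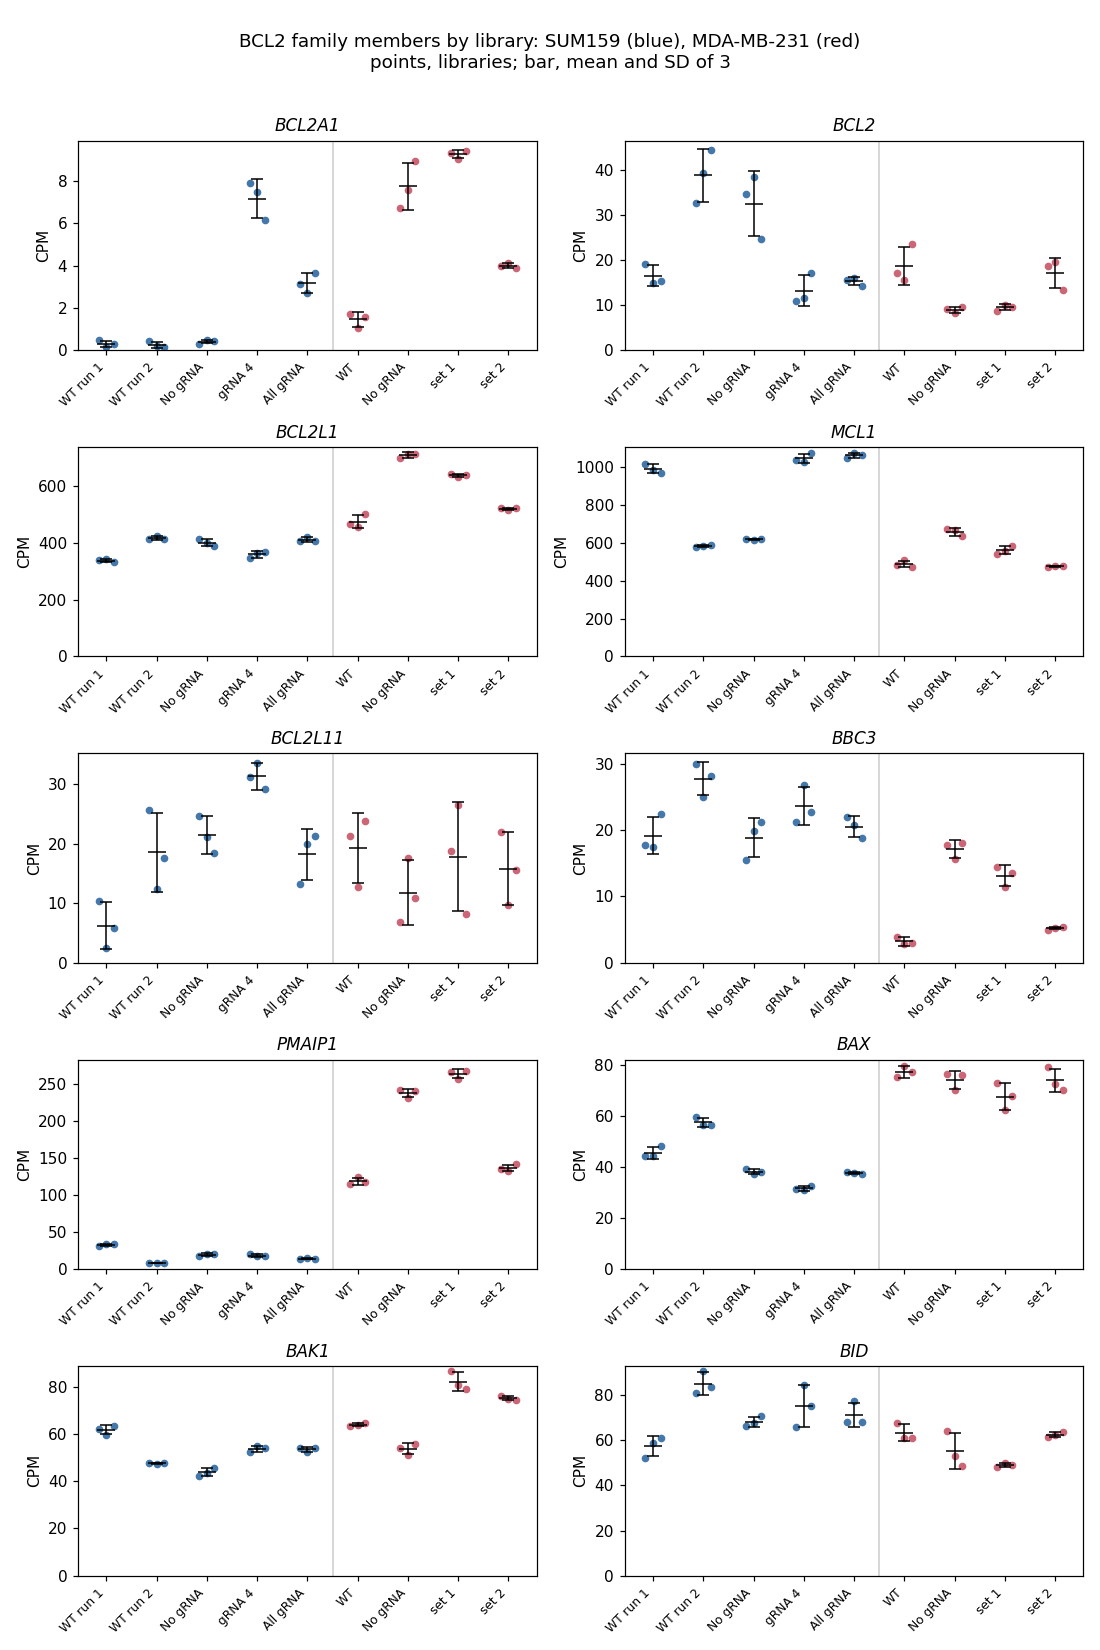
CPM of each of the 10 members in all 27 libraries (points), with the mean and SD of each group of 3 (bars), SUM159 in blue and MDA-MB-231 in red. BCL2A1 is under 0.5 CPM in all 9 SUM159 control libraries and between 2.70 and 7.89 in the 6 targeted ones, and PMAIP1 is over 100 CPM in every MDA-MB-231 library.

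BCL2, the founding guardian (chromosome 18, minus strand), was lower in SUM159 targeted cells than in No gRNA cells. In SUM159 No gRNA the libraries held 34.6, 38.4 and 24.6 CPM, in gRNA 4 10.9, 11.6 and 17.2, and in All gRNA 15.6, 16.1 and 14.2. Every targeted library was below every No gRNA library, with log2 differences of -1.31 (SE 0.20) and -1.06 (SE 0.19). The targeted cells overlapped SUM159 wild type of run 1 (19.2, 14.9 and 15.4 CPM), and against it the differences were -0.36 and -0.11. No gRNA rose 1.93-fold above that wild type (log2 0.95, SE 0.18, moderated adjusted p = 0.00151). Wild type of run 2 held 32.6, 39.3 and 44.4 CPM, 2.33-fold above run 1 (log2 1.22, SE 0.19, moderated adjusted p = 6.99e-05), and overlapped No gRNA.

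In MDA-MB-231, BCL2 was lower with the vector, at 9.08, 8.17 and 9.46 CPM in No gRNA against 17.1, 15.4 and 23.5 in wild type (log2 -1.11, SE 0.19). Set 1 stayed at 8.77, 10.1 and 9.53 CPM (log2 0.09, SE 0.21, moderated adjusted p = 0.763). Set 2 held 18.6, 19.5 and 13.4 CPM and rose 1.95-fold (log2 0.96, SE 0.19, moderated adjusted p = 0.0013), overlapping wild type. Across the 27 libraries the log2 CPM of BCL2 had a Pearson correlation of -0.805 with that of BCL2A1, rank 17287 of 17318 genes from the most alike, over libraries that share line, run and controls. BCL2L1 (0.608) and PMAIP1 (0.589) were the members with the highest correlation.

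BCL2L1, which encodes BCL-XL, kept to a small range at a high level. SUM159 libraries held 331 to 425 CPM and MDA-MB-231 libraries 456 to 714, with no overlap between the lines. With the vector it rose 1.18-fold in SUM159 against wild type of run 1 (log2 0.24, SE 0.040, moderated adjusted p = 0.000513). Wild type of run 2 (412, 425 and 414 CPM) overlapped No gRNA and was 1.23-fold above run 1 (log2 0.30, SE 0.037, moderated adjusted p = 9.7e-06). In MDA-MB-231 the libraries went from 467, 456 and 500.5 CPM in wild type to 696, 714 and 714 in No gRNA (log2 0.52, SE 0.029), and set 1 (642, 629.6 and 638) and set 2 (521, 516 and 522) lay between them, below every No gRNA library. Both sets fell, set 1 by 0.15 on the log2 scale (SE 0.028, moderated adjusted p = 0.00138) and set 2 by 0.42 (SE 0.029, moderated adjusted p = 2.93e-07). In SUM159 gRNA 4 it stood at 346, 364 and 366 CPM, below No gRNA (413, 399 and 389.8), and All gRNA (406, 422 and 404) overlapped No gRNA. All gRNA exceeded gRNA 4 1.15-fold (moderated adjusted p = 0.0392), a call that was lost when any of the 6 libraries was left out (log2 0.18 to 0.22). Exons of BCL2L1 overlap those of the antisense gene ABALON.

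MCL1, a short-lived guardian on chromosome 1, had the highest CPM of the family in every SUM159 group. No gRNA held 622, 617 and 621 CPM. The gRNA 4 libraries held 1038, 1025 and 1073, and the All gRNA libraries 1049, 1075 and 1065, so that both targeted groups stood about the same distance above No gRNA (log2 0.74, SE 0.034, and 0.78, SE 0.033). Wild type of run 1, at 1017, 983 and 970.3 CPM, was nearly as high. The vector thus went with a fall of 0.68 on the log2 scale (SE 0.033, moderated adjusted p = 4.4e-08), and against wild type the targeted groups differed by 0.06 and 0.09. Wild type of run 2, at 579, 584 and 589 CPM, was 1.71-fold below run 1 (moderated adjusted p = 1.52e-10), slightly under No gRNA.

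In MDA-MB-231, MCL1 had the opposite signs, a difference between the lines that was not tested. It was higher in No gRNA (673, 667 and 634 CPM) than in wild type (481, 508 and 474; log2 0.38, SE 0.038). Set 1 held 542, 557 and 585 and set 2 473, 476 and 477 CPM, each below every No gRNA library. The falls were 0.23 (SE 0.037, moderated adjusted p = 0.000599) and 0.45 on the log2 scale (SE 0.038, moderated adjusted p = 1.95e-06). Set 2 overlapped wild type (log2 -0.07, moderated adjusted p = 0.231). MCL1 shares exons with ADAMTSL4 on the opposite strand and with ADAMTSL4-AS1, and the strandedness of the libraries is not stated.

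BCL2L11, which encodes the BH3-only activator BIM, was the least even member. Wild type SUM159 of run 1 held 10.3, 2.50 and 5.90 CPM and No gRNA 24.7, 21.1 and 18.5, a 3.94-fold rise with the vector (log2 1.98, SE 0.36, moderated adjusted p = 0.00102) that did not pass TREAT (adjusted p = 0.363). The gRNA 4 libraries, at 31.1, 33.6 and 29.1 CPM, were all above No gRNA, and the All gRNA libraries, at 13.2, 19.9 and 21.3, overlapped it. Wild type of run 2 held 25.6, 12.4 and 17.6 CPM, above every library of run 1 (log2 1.72, SE 0.40, moderated adjusted p = 0.00203). In MDA-MB-231 the 12 libraries ran from 6.82 to 26.5 CPM with overlap between all 4 groups, and no comparison there passed either test (moderated adjusted p from 0.359 to 0.877 in those tested). Its exons overlap those of MIR4435-2HG on the opposite strand.

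BBC3, the BH3-only protein PUMA and a target of p53, was lowest in MDA-MB-231 wild type. In SUM159 it ran from 15.5 to 29.9 CPM, and No gRNA did not differ from wild type of run 1 beyond the spread (log2 -0.03, SE 0.14, moderated adjusted p = 0.882). Wild type of run 2 was 1.44-fold above run 1 (log2 0.53, SE 0.13, moderated adjusted p = 0.0036). In MDA-MB-231 the wild type libraries held 3.96, 2.79 and 2.96 CPM and the No gRNA libraries 17.8, 15.7 and 18.1, a 5.14-fold difference (log2 2.36, SE 0.16). Set 1 (14.4, 11.4 and 13.6 CPM) and set 2 (5.00, 5.31 and 5.35) were both below every No gRNA library and above every wild type library. In set 2 the fall passed the strict rule, at 3.22-fold (log2 -1.69, SE 0.14, TREAT adjusted p = 0.00774, moderated adjusted p = 1.36e-06). In set 1 it passed the moderated test alone (log2 -0.39, SE 0.11, adjusted p = 0.0172), and not without No gRNA replicate 1 (-0.36), No gRNA replicate 3 (-0.35) or set 1 replicate 2 (-0.29).

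For both sets together, BBC3 was 2.05-fold lower than in No gRNA (log2 -1.04, SE 0.10, moderated adjusted p = 1e-05, exact two-sided permutation p = 0.0238 over 6 against 3 libraries, where the smallest possible is 0.0119). Between the sets it was 2.46-fold higher in set 1 (log2 1.30, SE 0.15, moderated adjusted p = 1.61e-05). Wild type SUM159 of run 2 exceeded wild type MDA-MB-231 8.39-fold (log2 3.07, SE 0.16, TREAT adjusted p = 8.36e-08). The microRNA genes MIR3190 and MIR3191 lie within exons of BBC3, so a part of its counts could belong to them.

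PMAIP1, which encodes NOXA and is best known for binding MCL1, was an MDA-MB-231 transcript above all. Wild type libraries of that line held 115, 124 and 117 CPM, No gRNA 242, 231 and 240.1, set 1 267, 257 and 268, and set 2 135, 133 and 142. The 4 groups did not overlap. Against No gRNA, set 1 rose 1.11-fold (log2 0.15, SE 0.037, moderated adjusted p = 0.00626), a call that was lost with upper quartile scaling (0.08) or library totals (0.07). Set 2 fell 1.71-fold (log2 -0.78, SE 0.041, moderated adjusted p = 4.08e-08), which left it 1.90-fold below set 1 (moderated adjusted p = 8.15e-09). No gRNA stood 1.93-fold above wild type (log2 0.95, SE 0.042).

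In SUM159, PMAIP1 was highest in wild type of run 1 (31.9, 33.4 and 34.2 CPM) and fell 1.70-fold with the vector to 17.5, 21.1 and 20.4 (log2 -0.77, SE 0.093, moderated adjusted p = 5.1e-05). The gRNA 4 libraries (20.7, 17.2 and 17.3 CPM) overlapped No gRNA, and the All gRNA libraries (13.4, 14.5 and 14.2) lay below it (log2 -0.48, SE 0.11). Wild type of run 2 held 8.52, 7.80 and 8.82 CPM, 3.98-fold below run 1 and past TREAT (log2 -1.99, SE 0.11, adjusted p = 1.85e-05). In wild type cells of run 2 the SUM159 level was 14.5-fold below that of MDA-MB-231 (log2 -3.86, SE 0.095, TREAT adjusted p = 1.37e-11).

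BID, the BH3-only protein that carries the signal of death receptors to the mitochondrion, changed little. Its 27 libraries ran from 48.4 to 90.9 CPM. No comparison of a set with No gRNA passed the moderated test, although without No gRNA replicate 3 set 1 did (log2 -0.24) and without No gRNA replicate 1 set 2 did (log2 0.32). In turn, set 2 (61.5, 62.4 and 63.7 CPM) exceeded set 1 (48.4, 49.9 and 49.1) 1.29-fold, without overlap (moderated adjusted p = 0.00495). With the vector in SUM159 it stood at 66.4, 67.9 and 70.6 CPM against 52.3, 59.0 and 60.9 (log2 0.25, SE 0.095, moderated adjusted p = 0.0552, past the threshold with upper quartile scaling, log2 0.31), and wild type of run 2 was 1.48-fold above run 1 (moderated adjusted p = 0.000103).

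The effector BAX showed small differences. Its MDA-MB-231 libraries held 62.4 to 79.7 CPM, each set overlapped No gRNA, and none of the gRNA comparisons passed the moderated test. Set 1 gave a log2 value of -0.13 (-0.27 to 0.00 at 1.96 SE to each side) and set 2 0.02 (-0.11 to 0.15). With upper quartile scaling or library totals, set 1 did pass (-0.20 and -0.21), and the sign of set 2 turned. In SUM159 the level was lower in all 15 libraries. The gRNA 4 libraries held 31.2, 31.1 and 32.7 CPM, below No gRNA (39.3, 37.4 and 38.1; log2 -0.28, SE 0.066), whereas All gRNA (38.1, 37.6 and 37.5) overlapped it. BAX fell 1.20-fold with the vector (log2 -0.26, SE 0.061, moderated adjusted p = 0.00504) from 44.4, 44.2 and 48.4 CPM in wild type of run 1. Wild type of run 2 was 1.26-fold above run 1 (log2 0.33, SE 0.055, moderated adjusted p = 0.000159).

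BAK1, the other effector, was higher in targeted than in No gRNA cells in both lines and under each label. In SUM159 the No gRNA libraries held 42.3, 43.7 and 45.7 CPM, gRNA 4 52.6, 55.0 and 54.1, and All gRNA 54.2, 52.5 and 54.0 (log2 0.29, SE 0.059, for each). In MDA-MB-231 the No gRNA libraries held 54.3, 51.3 and 55.9 CPM, set 1 86.8, 80.8 and 79.1, and set 2 76.4, 75.0 and 74.7. No targeted library overlapped No gRNA in either line. In MDA-MB-231 the rise was 1.53-fold in set 1 (log2 0.62, SE 0.051, moderated adjusted p = 3.36e-06) and 1.42-fold in set 2 (log2 0.51, SE 0.052, moderated adjusted p = 7.92e-06). For both sets together the exact two-sided permutation p was 0.0119, the smallest that 6 against 3 libraries can give.

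Wild type cells placed these values differently by line and, in SUM159, by run. In MDA-MB-231, BAK1 in wild type (63.5, 64.0 and 64.8 CPM) was above No gRNA but below both sets, by 0.31 on the log2 scale for set 1 (moderated adjusted p = 0.000229) and 0.20 for set 2 (moderated adjusted p = 0.00856). In SUM159, wild type of run 1 (62.2, 59.9 and 63.7 CPM) exceeded the targeted groups, with log2 values of -0.22 for both. Against that wild type BAK1 fell 1.42-fold with the vector (log2 -0.50, SE 0.057, moderated adjusted p = 2.96e-05). Wild type of run 2 (47.6, 47.3 and 47.9 CPM) was instead below every targeted library of SUM159, and above every No gRNA library. It was 1.31-fold below run 1 (log2 -0.39, SE 0.052, moderated adjusted p = 2.21e-05). BAK1 shares exons with GGNBP1, a pseudogene on the opposite strand.

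The other genes of the pathway were taken from lists, and the members' changes can be read beside them. Of 13 other BCL2 family genes, 9 passed the filter in SUM159 and 10 in MDA-MB-231. With gRNAs in SUM159, 0 of the 9 passed TREAT or the moderated test. Of all genes, TREAT called 0.396% with All gRNA and 0.39% with gRNA 4, and the moderated test 10.8% and 11%. The unadjusted moderated p was under 0.05 for 2 of the 9 with All gRNA and for 4 with gRNA 4. In MDA-MB-231, BIK, a BH3-only gene, rose in set 1 from a mean of 2.23 to 7.53 CPM (log2 1.75, SE 0.15, TREAT adjusted p = 0.0144), and BOK, a relative of BAX, rose in set 2 from 22.7 to 60.3 CPM (log2 1.43, SE 0.072, TREAT adjusted p = 0.00213). Among 14 caspase and apoptosome genes, 0 passed TREAT or the moderated test with gRNAs in SUM159, beside the same shares of all genes. The unadjusted moderated p was under 0.05 for 2 of the 14 with All gRNA and 1 with gRNA 4. In MDA-MB-231, 6 rose and 1 fell in set 1 and 7 rose and 4 fell in set 2 by the moderated test, where 37.8% and 52.4% of all genes were called. The median log2 value in set 2 was 0.26 against -0.01 over all genes. By TREAT 0 passed, adjusted or unadjusted, where 1.47% and 4.14% of all genes were called. With the vector in MDA-MB-231, CYCS, which encodes cytochrome c, was at 206 CPM against 462 in wild type (log2 -1.22, SE 0.037). Of the 6 IAP genes tested, which encode caspase inhibitors, BIRC5 was the 1 past TREAT there (log2 -1.28, SE 0.063), where 3.6% of all genes were called.

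Beside BBC3 and PMAIP1, 2 lists were read, p53 with its targets (12 genes) and 9 other regulators of BCL2 family genes or proteins. In MDA-MB-231 No gRNA against wild type, TRIB3 (173 against 23.9 CPM) and DDIT3 (40.2 against 8.93 CPM), both genes of the integrated stress response, were higher, with log2 values of 2.80 (SE 0.085) and 2.11 (SE 0.088). In set 2 against No gRNA both fell, by 1.96 (SE 0.073, TREAT adjusted p = 3.68e-06) and 2.04 on the log2 scale (SE 0.087, TREAT adjusted p = 8.48e-06). GADD45A was higher with the vector (log2 1.93) and fell in set 2 (log2 -1.55, TREAT adjusted p = 0.000154). CDKN1A, the best known p53 target, rose in set 1 from 108 to 346 CPM (log2 1.68, SE 0.044, TREAT adjusted p = 1.96e-06). By the moderated test the p53 list had 5 genes higher and 2 lower in set 1 (37.8% of all genes called) and 2 higher and 3 lower in set 2 (52.4%). In SUM159, 0 genes of either list passed TREAT with gRNAs or with the vector, adjusted or unadjusted. Of all genes, TREAT called 0.396% with All gRNA, 0.39% with gRNA 4 and 1.53% with the vector. By the moderated test the p53 list had 2 genes higher and 6 lower with the vector against wild type of run 1 (42.9% of all genes called). With gRNA 4 it had 2 higher and 1 lower (11%), and with All gRNA 1 higher and 1 lower (10.8%). Of the other regulators, 0 were higher and 3 lower with the vector, and 1 was higher and 1 lower in each gRNA comparison.

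NF-kB, which is known to drive BCL2A1 in blood cells, was read in a list of 15 genes, of which 14 were matched in the table. In MDA-MB-231 No gRNA against wild type, 13 of 14 were higher by the moderated test (53.8% of all genes called in either direction) and 8 by TREAT (3.6%), with a median log2 value of 1.33 against 0.00 over all genes. CCL20 (log2 2.78, SE 0.22), TRAF1 (log2 1.52, SE 0.058) and TNFAIP3 (log2 1.52, SE 0.098) were among them. In set 2, 11 of 14 fell by the moderated test (52.4%) and 4 by TREAT (4.14%). Those past TREAT included CCL20 (log2 -3.44, SE 0.26, TREAT adjusted p = 6.08e-05), CXCL8 (log2 -2.66, SE 0.049, TREAT adjusted p = 1.54e-09) and IL6 (log2 -2.08, SE 0.066, TREAT adjusted p = 5.23e-07). In set 1, where BCL2A1 was highest, 2 rose and 6 fell by the moderated test (37.8%). CCL20 alone passed TREAT there (1.47% of all genes), falling by 1.90 on the log2 scale (SE 0.18, TREAT adjusted p = 0.0171).

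In SUM159, CCL20 averaged 35.2 CPM in wild type of run 1 and 35.1 with gRNA 4, groups in which BCL2A1 averaged 0.294 and 7.16 CPM. In wild type of run 2 both were low, CCL20 at 0.906 and BCL2A1 at 0.252 CPM. A part of NF-kB in the levels of BCL2A1 was not tested. Against wild type of run 1, 10 of 14 NF-kB genes fell with the vector by the moderated test (42.9% of all genes called) and 3 by TREAT (1.53%). The 3 were CCL20 (by 2.64 on the log2 scale), CXCL8 (2.45) and TRAF1 (2.03). Wild type of run 2 was also below run 1, in 13 of 14 genes by the moderated test (58.8%) and 6 by TREAT (6.47%). There CCL20, CXCL8 and TRAF1 averaged 0.906, 120 and 2.94 CPM, below the No gRNA means of 5.65, 281 and 9.27. The direction for these 3 genes thus depended on which wild type was taken. With gRNAs, 2 of 14 were higher by the moderated test in each comparison (10.8% and 11% of all genes called). CCL20 alone passed TREAT, at log2 2.62 (SE 0.10) with gRNA 4 (0.39% of all genes) and 1.82 (SE 0.11) with All gRNA (0.396%).

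The genes whose log2 CPM followed that of BCL2A1 most closely over the 27 libraries, among 17318 genes, were SERPINA1 (Pearson r = 0.921), SPINT1 (0.916), GOLGA7B (0.894), LSR (0.893) and AFDN (0.892). The libraries share line, run and controls, so these are descriptions. Within SUM159 the values were 0.861, 0.956, 0.820, 0.909 and 0.880, and within MDA-MB-231 0.985, 0.685, 0.996, 0.526 and 0.842. SPINT1, an inhibitor of membrane proteases, averaged 0.276 CPM in SUM159 No gRNA against 15.1 with gRNA 4 and 14.98 with All gRNA, but in MDA-MB-231 reached 153 in set 1 and 113 in set 2 from 15.8 in No gRNA. SERPINA1, the protease inhibitor alpha-1 antitrypsin, followed BCL2A1 more closely in MDA-MB-231, where wild type averaged 26.8 CPM, No gRNA 84.8, set 1 114 and set 2 52.6.

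**Figure D4:**
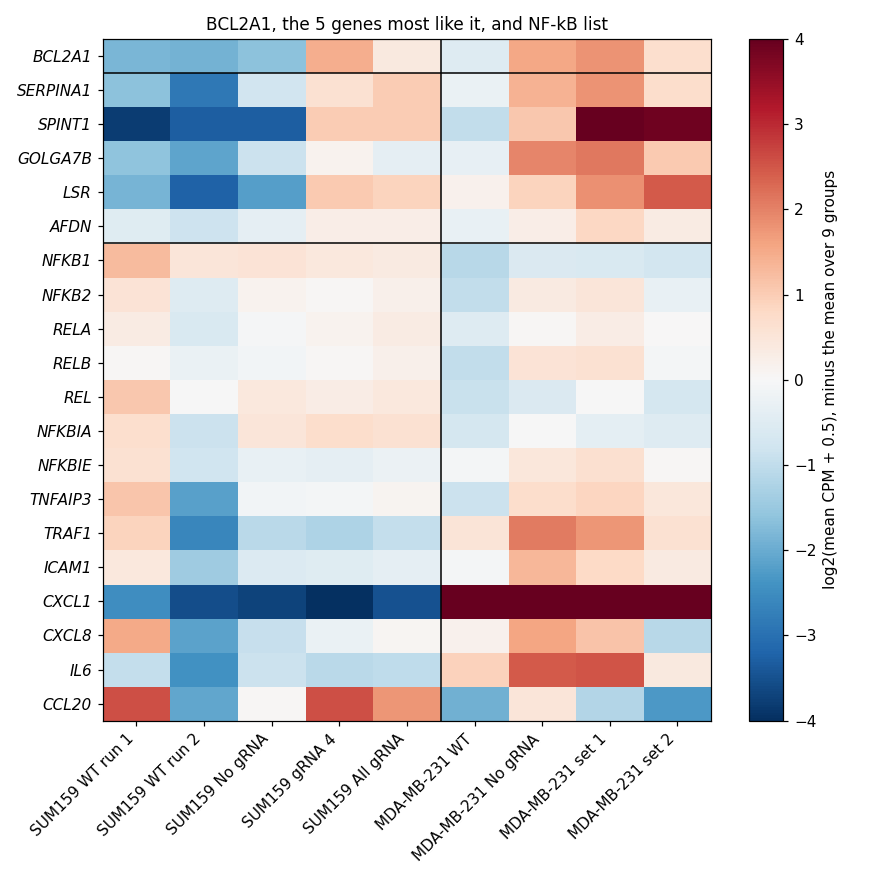
Heat map of log2(mean CPM + 0.5) minus each gene's mean over the 9 groups (columns), for BCL2A1, the 5 genes most like it and the 14 NF-kB genes (rows), with colours ending at -4 and 4. BCL2A1 and the 5 genes are lowest in SUM159 control groups, whereas CCL20 and CXCL8 are high in SUM159 wild type of run 1, where BCL2A1 averaged 0.294 CPM. In SUM159 wild type of run 2, CCL20 averaged 0.906, CXCL8 120 and BCL2A1 0.252 CPM.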

How the data were processed

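RNA-seq (50 bp single-end reads) of 27 libraries was used. The authors deposited gene-level estimated counts, made with Salmon and tximport (lengthScaledTPM) and not normalized between libraries. The submitters' processing notes give GRCh38. The Salmon version, index, annotation and strandedness are not given in the sources used here, so genes with overlapping exons are uncertain. Of 57165 identifiers, 56347 matched GENCODE 44. Groups came from the sample labels.

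Analysis used R 4.3.3. The main test was voom with TREAT in limma 3.58.1, which the study's methods name. TMM scaling, filterByExpr (minimum count 10, both from edgeR 4.0.16) and the TREAT threshold, a log2 fold change of 1, were set here. Calls needed a Benjamini-Hochberg adjusted p under 0.05, two-sided. The same fit was tested against 0 (the moderated test). One fit covered the 12 SUM159 libraries of run 1 (15147 genes), 1 the 12 MDA-MB-231 libraries (15721), 1 the 15 SUM159 libraries (15460) and 1 the 15 libraries of run 2 (16473). Estimated counts were rounded for the tests with edgeR and with DESeq2 1.42.0. CPM uses TMM over all 27 libraries, and log2 CPM a prior count of 2. Exact permutation tests of 3 against 3 libraries cannot go below p = 0.1, so only those of 6 against 3 are quoted. CPM per kb divides by the GENCODE canonical transcript.

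The members, gene lists and tests were chosen with earlier results of these data known. The rule for named genes took all members, and of each other list at most the 3 genes past TREAT with the largest changes in a comparison. For reading beside BCL2A1, the 5 genes with the highest Pearson correlation were named. Replicate libraries were compared pairwise (r of log2 CPM 0.981 to 0.988) and none was a duplicate. The steps were tested on simulated data. The alternatives were other scalings, tests, filters, weights and library sets, the replicate number as a block, each library left out, and wild type as the control, which was added after the data were seen. One blood cell marker is not reported here.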

Additional observations from a re-analysis of the deposited data

Results flagged for a closer look

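These results were set apart because every library of the first group lay on one side of its control and every library of the second group on the other side. The difference between the lines was not tested, line and run cannot be told apart, and with 3 libraries to a group an unusual single library cannot be recognised. BCL2A1 was higher in SUM159 targeted cells and lower in MDA-MB-231 set 2, each against its own No gRNA, and the log2 fold changes differed by 3.84 for All gRNA and 5.00 for gRNA 4. Its levels in SUM159 targeted cells and in MDA-MB-231 No gRNA led to the choice of the group, so this opposition is a description only. BCL2 was lower in SUM159 targeted cells and higher in set 2, a difference of -2.02 for All gRNA and -2.27 for gRNA 4. MCL1 was higher in SUM159 targeted cells and lower in both MDA-MB-231 sets. For All gRNA the difference was 1.00 to set 1 and 1.22 to set 2, and for gRNA 4 it was 0.97 and 1.19. BBC3 stood at a mean of 23.6 CPM with gRNA 4 in SUM159 against 18.9 in No gRNA, a difference that passed neither test, and was lower in set 1 (0.71) and set 2 (2.01). PMAIP1 was lower with All gRNA in SUM159 and higher in set 1 (-0.64).

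With the vector alone, No gRNA against wild type (of run 1 in SUM159), the same opposition was seen for 3 members. The share of all genes that meet this rule was not counted, here or for the gRNA contrasts, so nothing is read from the number. In the vector contrasts the moderated test called 42.9% of all genes in SUM159 and 53.8% in MDA-MB-231. BCL2 was higher in SUM159 and lower in MDA-MB-231, a difference of 2.06 in log2 fold change. MCL1 (-1.06) and PMAIP1 (-1.71) were lower in SUM159 and higher in MDA-MB-231.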

How the results depend on the processing

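Of the log2 fold changes of single members under alternative settings other than leaving out a library, 760 kept their side of the threshold, 18 newly passed it, 20 no longer passed it and 20 turned sign with a call on at least 1 side. With each library left out in turn the counts were 651, 4, 35 and 0. All 20 that turned did so with wild type as the control in place of No gRNA, which changes the question asked. In SUM159 that control was wild type of run 1. There BAK1 came to -0.22 with All gRNA and -0.22 with gRNA 4, BCL2L1 to 0.074 with gRNA 4 and BCL2L11 to 1.72 with All gRNA. In MDA-MB-231, given for both sets, set 1 and set 2 in turn, BBC3 came to 1.32, 1.97 and 0.67, BCL2 to -0.58, -1.01 and -0.15 and BCL2L1 to 0.24, 0.37 and 0.10. BCL2A1 came to 2.04 (both sets) and 1.44 (set 2), MCL1 to 0.044 (both sets) and 0.15 (set 1), PMAIP1 to 0.64 (both sets) and 0.17 (set 2) and BID to -0.23 (both sets). With that control the members past TREAT numbered 1 for both sets (2.86% of all genes called) and 2 for set 1 (8.42%). They numbered 0 for set 2 (1.44%) and 2 for SUM159 gRNA 4 (2.46%). Those past the moderated test numbered 9 for set 1 (59.5%) and 8 for SUM159 All gRNA (48.7%).

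Apart from that control, the moderated count moved by over 1.5 times for All gRNA against gRNA 4 alone, from 2 members to 1 with edgeR, 4 with DESeq2, 0 with only the groups compared in the fit and 0 to 1 with a library left out, where fewer samples enter. For All gRNA against No gRNA the TREAT count ran from 0 to 1 with a library left out. The replicate number was also fitted as a replicate block, which gave 0 members for All gRNA against gRNA 4 and moved no other count of members by over 1.5 times. Libraries with the same number did not deviate together (r from -0.065 to 0.045, 0 pairs over 0.1), so the numbers were not taken as pairs, and over pairs of groups in the SUM159 fit the best partner had the same number in 7 of 18 cases. Scaling by upper quartile or library totals turned the sign only of log2 values between -0.03 and 0.04, none of them called. Beyond what is stated above and beside the results, the causes of these shifts were not tested. The depth limits BCL2A1 in SUM159 controls, where 2.32 to 9.57 counts per library carry the level.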
